A study of Mus musculus with 6 samples.

Results

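The axon guidance genes described here are the semaphorins with their plexin receptors, the netrins with their Unc5 receptors, the Slits with their Robo receptors, and the ephrins with their Eph receptors. All gene symbols that begin with Sema, Plxn, Unc5, Robo, Slit, Ntn, Efna, Efnb, Epha or Ephb were taken, Slitrk genes were left out, and a gene needed at least 20 unique molecular identifiers (UMIs, each standing for 1 captured RNA molecule) over all barcodes. Of 31055 genes, 70 had such a symbol and 53 reached the minimum. Of these, 51 belong to the guidance families: 17 semaphorins, 8 plexins, 2 netrins, 3 Unc5 receptors, 2 Slits, 3 Robo receptors, 4 ephrin-A and 3 ephrin-B ligands, 4 EphA and 5 EphB receptors. The other 2 are Unc50, which shares only the start of its name, and Plxna4os1, an antisense RNA. Strand handling is not stated, so some reads of Plxna4 may have been counted under Plxna4os1 or the reverse. Their levels differed, with the highest mean of Plxna4os1 in macrophage-like cells and that of Plxna4 in epicardial-like cells. Just inside the minimum lay Efnb3 and Unc5c with 42 UMIs each, and just outside it Epha5 with 16 and Sema4g and Efna3 with 14 each.

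Cells were taken from the hearts of C57BL/6 mice that were 3 to 6 months old. The Dsp_het group (3 libraries) carried Wt1CreERT2, the Rosa26mTmG reporter and 1 conditional Dsp allele (DspW/F), and the control group (3 libraries) carried Wt1CreERT2 and Rosa26mTmG without it. Dsp encodes desmoplakin of the desmosome. CreERT2 is a Cre that needs an inducer. Wt1CreERT2 therefore marks epicardial and any other cells in which Wt1 is active while the inducer is present, together with their descendants. Hearts were digested with collagenase II, myocytes were removed, EGFP-positive cells were sorted, and 10x Genomics 3′ libraries were read.

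Guidance proteins were first known for steering growing axons, and the same ligands and receptors steer vessels. Secreted semaphorins bind plexins, most of them together with a neuropilin co-receptor, and mostly repel the cells that carry them. Netrins bind Unc5 receptors, Slits bind Robo receptors, and ephrins, which are tethered to membranes, signal into both the cell that carries the ephrin and the cell that carries the Eph receptor. In developing mouse vessels ephrin-B2 marks arteries and its receptor Ephb4 marks veins.

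The 6 libraries held 2320 to 3673 barcodes and 7573157 to 17083660 UMIs. Of 13183 distinct barcodes, 1689 occurred in several libraries. Occurrences outside the library with at least 0.5 of such a barcode's UMIs, called copies here, made up 17.3% to 48.9% of the barcodes of a library and were left out, which left 12669 cells. Endothelial-like cells were 9340 of these (73.7%) in 9 clusters, fibroblast-like cells 1156, epicardial-like cells 600, macrophage-like cells 221, pericyte-like cells 206, cardiomyocyte-like cells 150 and cycling cells 73, and 923 cells stayed unnamed. The labels call all sorted cells epicardial derived, yet the summed level of 12 epicardial markers was 8798 to 11032 CPM (a gene's UMIs scaled by all UMIs of the same cells) in epicardial-like cells and 31.8 to 50.5 CPM in endothelial-like cells. Dsp itself gave 16, 11 and 31 UMIs in the Dsp_het libraries, against 13, 15 and 32 UMIs in the control libraries. In epicardial-like cells Dsp was at 7.30, 7.25 and 9.44 CPM in Dsp_het (14, 6 and 15 UMIs), against 12, 19.7 and 17.5 CPM in control (4, 7 and 18 UMIs), so every Dsp_het library was lower there. A 3′ tag does not show whether the conditional allele was deleted.

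Promoter sequences are shown for Sema3g, Unc5b and Efnb2, the 3 genes with the largest ratio of arterial-like to other endothelial-like cells, and for Ephb4, the receptor of ephrin-B2. They were chosen after the levels had been seen. RefSeq promoters (build GRCm38.p6) matched 45 of the 53 genes by symbol. Each line gives the 250 bases before the annotated start, 5′ to 3′ on the strand of the gene. Sema3g lies on chromosome 14, plus strand (chr14:31217623-31217872), Unc5b on chromosome 10, minus strand (chr10:60831582-60831831), Efnb2 on chromosome 8, minus strand (chr8:8661243-8661492), and Ephb4 on chromosome 5, plus strand (chr5:137349859-137350108).
Sema3g: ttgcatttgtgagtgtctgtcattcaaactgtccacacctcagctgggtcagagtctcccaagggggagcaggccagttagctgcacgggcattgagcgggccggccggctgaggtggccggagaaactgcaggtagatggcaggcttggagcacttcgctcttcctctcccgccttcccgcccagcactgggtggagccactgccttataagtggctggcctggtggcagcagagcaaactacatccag
Unc5b: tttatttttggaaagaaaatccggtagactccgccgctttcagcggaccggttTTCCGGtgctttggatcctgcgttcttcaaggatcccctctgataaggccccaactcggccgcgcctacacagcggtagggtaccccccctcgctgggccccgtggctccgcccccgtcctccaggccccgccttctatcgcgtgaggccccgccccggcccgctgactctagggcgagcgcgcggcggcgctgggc
Efnb2: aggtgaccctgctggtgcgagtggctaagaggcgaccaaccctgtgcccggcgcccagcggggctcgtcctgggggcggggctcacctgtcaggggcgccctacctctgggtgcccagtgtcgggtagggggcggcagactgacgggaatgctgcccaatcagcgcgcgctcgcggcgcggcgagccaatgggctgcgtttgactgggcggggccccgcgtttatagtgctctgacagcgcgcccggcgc
Ephb4: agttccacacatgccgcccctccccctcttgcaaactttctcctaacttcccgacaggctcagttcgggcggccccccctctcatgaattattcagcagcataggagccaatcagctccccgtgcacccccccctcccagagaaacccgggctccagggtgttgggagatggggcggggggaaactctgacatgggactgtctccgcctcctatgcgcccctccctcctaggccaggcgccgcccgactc
Capitals mark matches, on either strand, to TGGGAA (the core bound by the Notch partner RBPJ), CCGGAA (a core bound by ETS factors) and CACGTG (an E-box of the kind bound by Hey factors). The only match in the 4 windows was 1 to CCGGAA, on the opposite strand in the Unc5b window, where it reads TTCCGG. Over all 32851 promoter windows of this length, 21.6% held TGGGAA, 12% held CCGGAA and 6.02% held CACGTG. Of the 44 guidance family genes with a promoter, 10 held TGGGAA, 7 held CCGGAA and 3 held CACGTG in any of their windows. A match is a run of letters and was not tested as a binding site.

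The first question was which cells of the sorted heart expressed which guidance genes. Levels are CPM of the UMIs summed over all cells of a class in a library, given as the lowest, median and highest over 6 libraries (5 for macrophage-like and 3 for pericyte-like cells, which needed 20 cells per library). The pericyte-like values came from Dsp_het library 3 and control libraries 2 and 3. The macrophage-like values came from all libraries but Dsp_het library 1. A 3′ UMI counts molecules and not their length. Of the 51 family genes, 20 had their highest mean in epicardial-like cells, and for 10 of these the range over libraries did not overlap that of the class in second place. Endothelial-like cells led in 14 genes (7 without overlap) and fibroblast-like cells in 10 (3 without overlap). Pericyte-like cells led in 4 genes, none without overlap, and macrophage-like cells in 3, of which 2 were without overlap. Clustering used no guidance gene, and these levels are a description with no test. The share of all genes led by each class was not computed, so these counts do not set guidance genes apart from other genes.

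**Figure D1:**
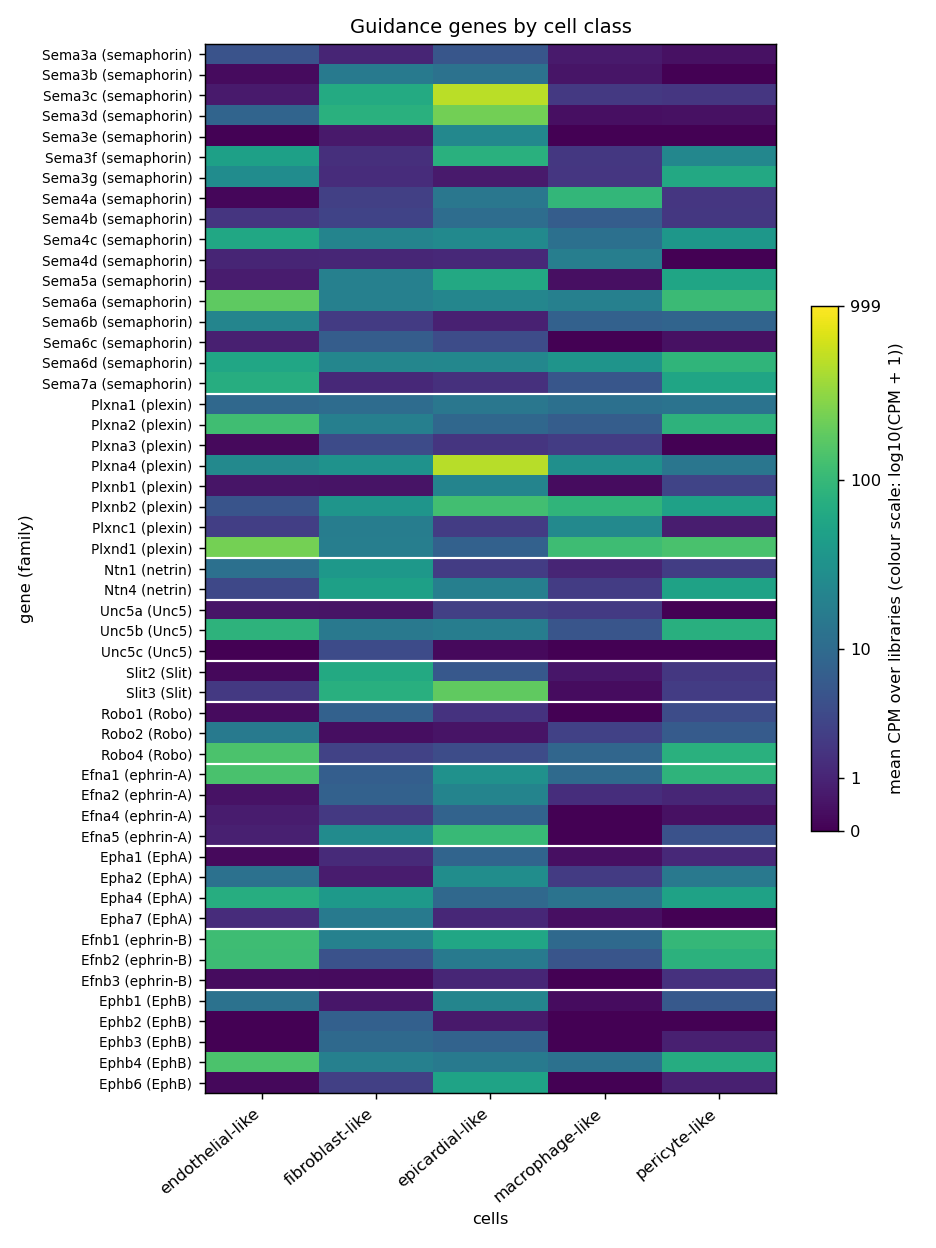
Mean CPM over libraries (colour, log10 of CPM plus 1) of the 51 guidance family genes (rows, grouped by family) in 5 cell classes (columns). Sema3c and Plxna4 stand out in epicardial-like cells at 484 and 473 CPM, and Plxnd1 in endothelial-like cells at 233 CPM.

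Epicardial-like cells held the highest levels of the secreted semaphorins Sema3c, Sema3d and Sema3e. Sema3c, a ligand needed for septation of the outflow tract in mice, was at 345, 497 and 594 CPM there. In fibroblast-like cells it was at 40.1, 65.5 and 99.3 CPM, and in endothelial-like cells it did not exceed 0.944 CPM. Sema3d, which patterns the pulmonary veins in mice, was at 176, 216 and 313 CPM in epicardial-like cells, against 59.4, 78.4 and 99.7 CPM in fibroblast-like cells. Both genes therefore followed the same order, epicardial above fibroblast above endothelial, with no overlap between the ranges. Sema3e, the ligand of the endothelial receptor Plxnd1, was lower, at 10.4, 24.3 and 42.2 CPM, and did not exceed 2.14 CPM in any library of the other 4 classes. Sema3f, which binds plexins with Nrp2, was at 60.1, 77.0 and 104 CPM in epicardial-like cells and overlapped the 31.3, 49.8 and 62.9 CPM of endothelial-like cells. Sema5a, a transmembrane semaphorin, was at 49.5, 65.9 and 80.9 CPM in epicardial-like cells, and its range overlapped the 36.0, 63.9 and 71.5 CPM of pericyte-like cells.

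The receptors of epicardial-like cells differed from those of endothelial-like cells. Plxna4, a plexin-A receptor, was at 310, 474 and 618 CPM, a mean 14.4 times that of fibroblast-like cells, the class in second place. Plxnb2, a receptor of transmembrane semaphorins, was at 91.2, 122 and 163 CPM, and macrophage-like cells overlapped it at 66.3, 77.9 and 123 CPM. Plxnb1, its close relative, was at 12, 23.0 and 30 CPM. Ephb6, an Eph receptor without kinase activity, was at 34.9, 52.9 and 78.7 CPM and did not exceed 4.45 CPM in any library of the other 4 classes. Of the ligands, Slit3 was at 134, 185 and 227 CPM against 46.5, 79.6 and 105 CPM in fibroblast-like cells. Efna5, an ephrin-A tethered by a lipid anchor, was at 80.8, 100.1 and 135 CPM against 22.9, 25.4 and 33.9 CPM in fibroblast-like cells. Epicardial-like cells also carried fibroblast markers at 8848 to 11693 CPM in sum, against 48399 to 62074 CPM in fibroblast-like cells, and their part in these levels was not tested.

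Fibroblast-like cells were set apart by Slit2, with 55.7, 62.1 and 81.0 CPM against 0, 6.92 and 11.3 CPM in epicardial-like cells, while Slit3 was shared by both classes. Ntn1, the founding netrin, had its highest mean there, at 17.8, 34.7 and 70.5 CPM, and its range overlapped the 8.58, 10.9 and 19.4 CPM of endothelial-like cells. Epha7, an EphA receptor, was at 3.99, 18.2 and 22.3 CPM. Ntn4, a netrin of basement membranes, was at 24.0, 45.9 and 80.1 CPM in fibroblast-like cells and 30.7, 61.3 and 67.7 CPM in pericyte-like cells, so the order of these neighbours was within their spread. The Slit receptor Robo1 was low in all classes and had its highest mean in fibroblast-like cells, at 3.43, 7.28 and 12.8 CPM, overlapping pericyte-like cells. Robo2, another Slit receptor, had its lowest mean in fibroblast-like cells, at most 1.43 CPM in any library.

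Macrophage-like cells led in 3 genes. Sema4a, a semaphorin of immune cells, was at 66.3, 85.1 and 132 CPM, against at most 19.7 CPM in any library of the other classes. Sema4d, known as an activation antigen of lymphocytes, was at 10.6, 19.2 and 24.9 CPM. Plxnc1, the receptor of Sema7a, was at 15.6, 28.4 and 32.4 CPM and overlapped fibroblast-like cells. Plxnd1 was also present, at 64.7, 104 and 166 CPM.

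Endothelial-like cells held Plxnd1 at 191, 241 and 273 CPM, Sema6a at 150, 180 and 202 CPM and Robo4, the Robo receptor of vessels, at 129, 141 and 153 CPM. Sema6a is a transmembrane ligand of plexin-A receptors, and Plxna2, one of these, was at 102, 123 and 134 CPM in the same cells. Ephb4 was at 109, 137 and 168 CPM, Efnb2 at 105, 107 and 142 CPM, Efna1 at 121, 134 and 158 CPM and Unc5b at 67.5, 89.0 and 102 CPM. Nrp1 and Nrp2, the semaphorin co-receptors of the fixed pathway list, were at 708, 780 and 853 CPM and at 246, 295 and 373 CPM. Pericyte-like cells came second in most of these genes, with Plxnd1 at 97, 136 and 174 CPM, Sema6a at 98.3, 107 and 123 CPM and Robo4 at 71.0, 81.8 and 86.8 CPM. Efnb1, an ephrin-B, was at 72.1, 81.7 and 143 CPM in pericyte-like cells, against 86.9, 118 and 147 CPM in endothelial-like cells. They also carried endothelial markers at 17607 to 19438 CPM in sum, against 27422 to 34293 CPM in endothelial-like cells, and the part of these in the pericyte-like levels was not tested. Ntn4 and Sema5a, by contrast, were above the endothelial-like level in every pericyte-like library. Sema6d and Sema3g had their highest mean in pericyte-like cells, at 69.9, 97 and 107 CPM for Sema6d and 36.0, 66.5 and 86.8 CPM for Sema3g. Both overlapped endothelial-like cells, which had 40.3, 57.0 and 78.1 CPM of Sema6d and 21.6, 26.4 and 38.4 CPM of Sema3g. Sema7a (68.4, 70.2 and 83.1 CPM), Epha4 (60, 71.0 and 89.4 CPM) and Sema4c (49.4, 58.4 and 75.5 CPM) were highest in endothelial-like cells and overlapped pericyte-like cells. Sema3b had its highest mean in fibroblast-like cells, at 8.58, 14.6 and 27.9 CPM, and overlapped epicardial-like cells. Efna2 was highest in epicardial-like cells with a mean of 21.4 CPM, and Sema4b, Epha1, Efna4 and Unc5a had their highest mean there at 10.7, 8.34, 7.95 and 2.65 CPM. Ephb3, Ephb2, Sema6c, Plxna3 and Unc5c had theirs in fibroblast-like cells at 9.71, 7.25, 6.75, 3.88 and 3.84 CPM. Of the genes outside the families, Unc50 lay between 67.3 and 143 CPM in every library of all 5 classes.

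The second question was how the guidance genes divided the endothelial-like cells, the largest class. Of the 9 clusters, 4 took names from markers: arterial-like (955 cells), capillary-like (1461), interferon-response (732) and Apln-positive (271). The other 5 are called by their leading genes: Rbp7/Cxcl12-led (1620 cells), Rasa4/Serpina1b-led (1512), Shank3/Mcf2l-led (1482), Cldn5/Mycn-led (998) and Cytl1/Vwf-led (309). The venous marker Nr2f2 was among the leading genes of Rasa4/Serpina1b-led cells. Yet all 6 venous markers that could be scored had their highest level in Cytl1/Vwf-led cells. Only 2 of them led that cluster within endothelial-like cells, as did the endocardial markers Cytl1 and Plvap, and a name needed 3. Levels are again the lowest, median and highest over 6 libraries (4 for Apln-positive cells), a description with no test. The Apln-positive values came from Dsp_het library 1 and control libraries 1, 2 and 3, so the genotypes were not balanced there.

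**Figure D2:**
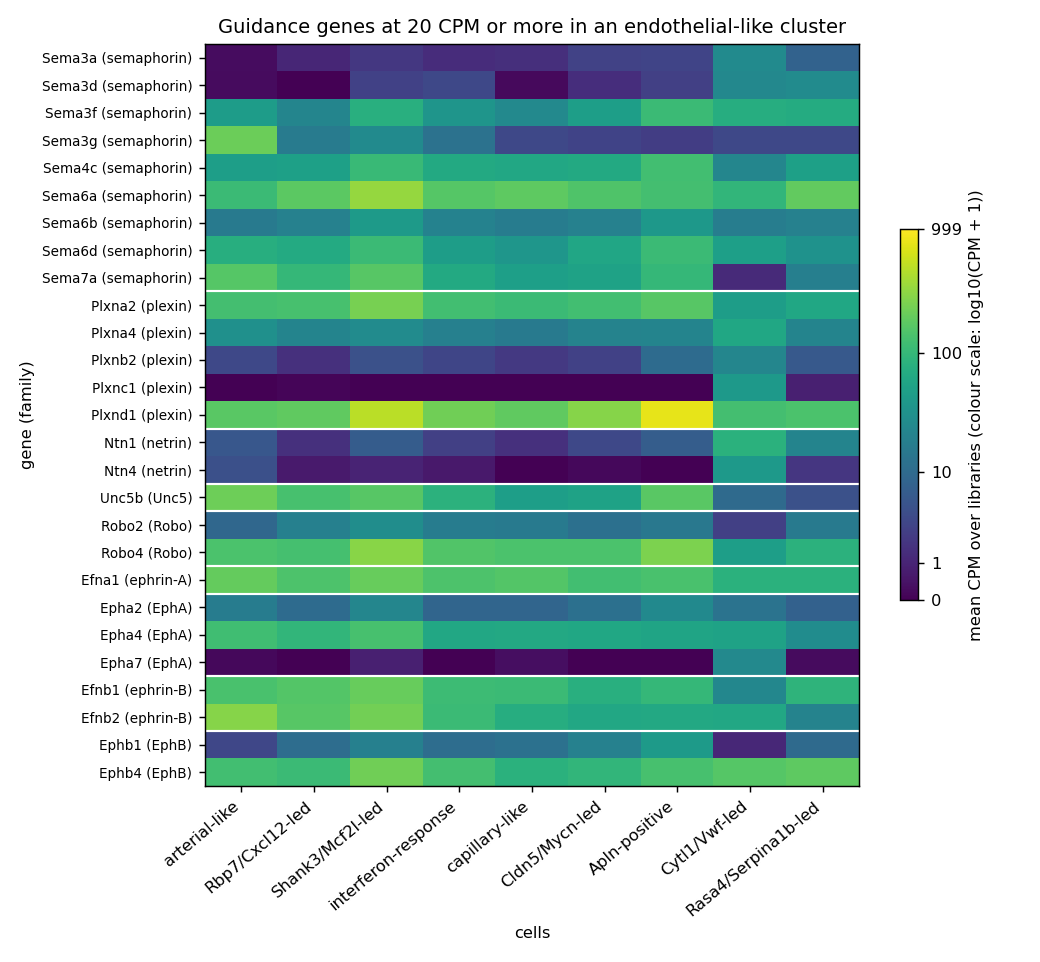
Mean CPM over libraries (colour, log10 of CPM plus 1) of the guidance genes that reached 20 CPM in at least 1 of 9 endothelial-like clusters (columns). Sema3g is high in arterial-like cells (208 CPM), Plxnd1 in Apln-positive cells (776 CPM), and Ntn4 and Plxnc1 in the Cytl1/Vwf-led cluster (40.6 and 39.6 CPM).

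Sema3g, a secreted semaphorin known from arterial endothelium in mice, was at 155, 203 and 272 CPM in arterial-like cells. The cluster in second place, Shank3/Mcf2l-led, had 10.4, 28.2 and 34.5 CPM, so no library overlapped. The ratio of arterial-like cells to all other endothelial-like cells was 4.44 on the log2 scale and positive in 6 of 6 libraries. Efnb2 was at 240, 291 and 307 CPM in arterial-like cells and at 173, 231 and 296 CPM in Shank3/Mcf2l-led cells, which overlapped. It was lowest in Rasa4/Serpina1b-led cells, at 12.8, 22.2 and 25.3 CPM. Unc5b, the netrin receptor of arteries and sprouting tips, ran in parallel: 188, 212 and 261 CPM in arterial-like cells and 3.56, 3.99 and 5.84 CPM in Rasa4/Serpina1b-led cells. Sema7a, a lipid-anchored semaphorin, was at 118, 159 and 214 CPM in arterial-like cells, 6.41, 18.8 and 30.5 CPM in Rasa4/Serpina1b-led cells and at most 3.42 CPM in Cytl1/Vwf-led cells.

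Ephb4 varied less than its ligand. It was at 102, 121 and 138 CPM in arterial-like cells, 154, 175 and 235 CPM in Rasa4/Serpina1b-led cells, and 65.2, 80.3 and 100.3 CPM in capillary-like cells, the lowest. The number of Efnb2 UMIs per Ephb4 UMI ordered the clusters as follows. It was 2.07, 2.30 and 2.89 in arterial-like cells, then 1.2, 1.52 and 1.88 in Rbp7/Cxcl12-led cells. Shank3/Mcf2l-led cells had 0.707, 1.05 and 1.18, interferon-response cells 0.627, 0.922 and 1.00, and capillary-like cells 0.695, 0.872 and 1.14, so these neighbours did not differ beyond their spread. Cldn5/Mycn-led cells had 0.429, 0.708 and 0.789, Apln-positive cells 0.294, 0.522 and 0.643, and Cytl1/Vwf-led cells 0.213, 0.388 and 0.596. Rasa4/Serpina1b-led cells had 0.0818, 0.130 and 0.141, below every library of every other cluster. The arterial-like, Rbp7/Cxcl12-led and Rasa4/Serpina1b-led clusters did not overlap their neighbours in this order.

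**Figure D3:**
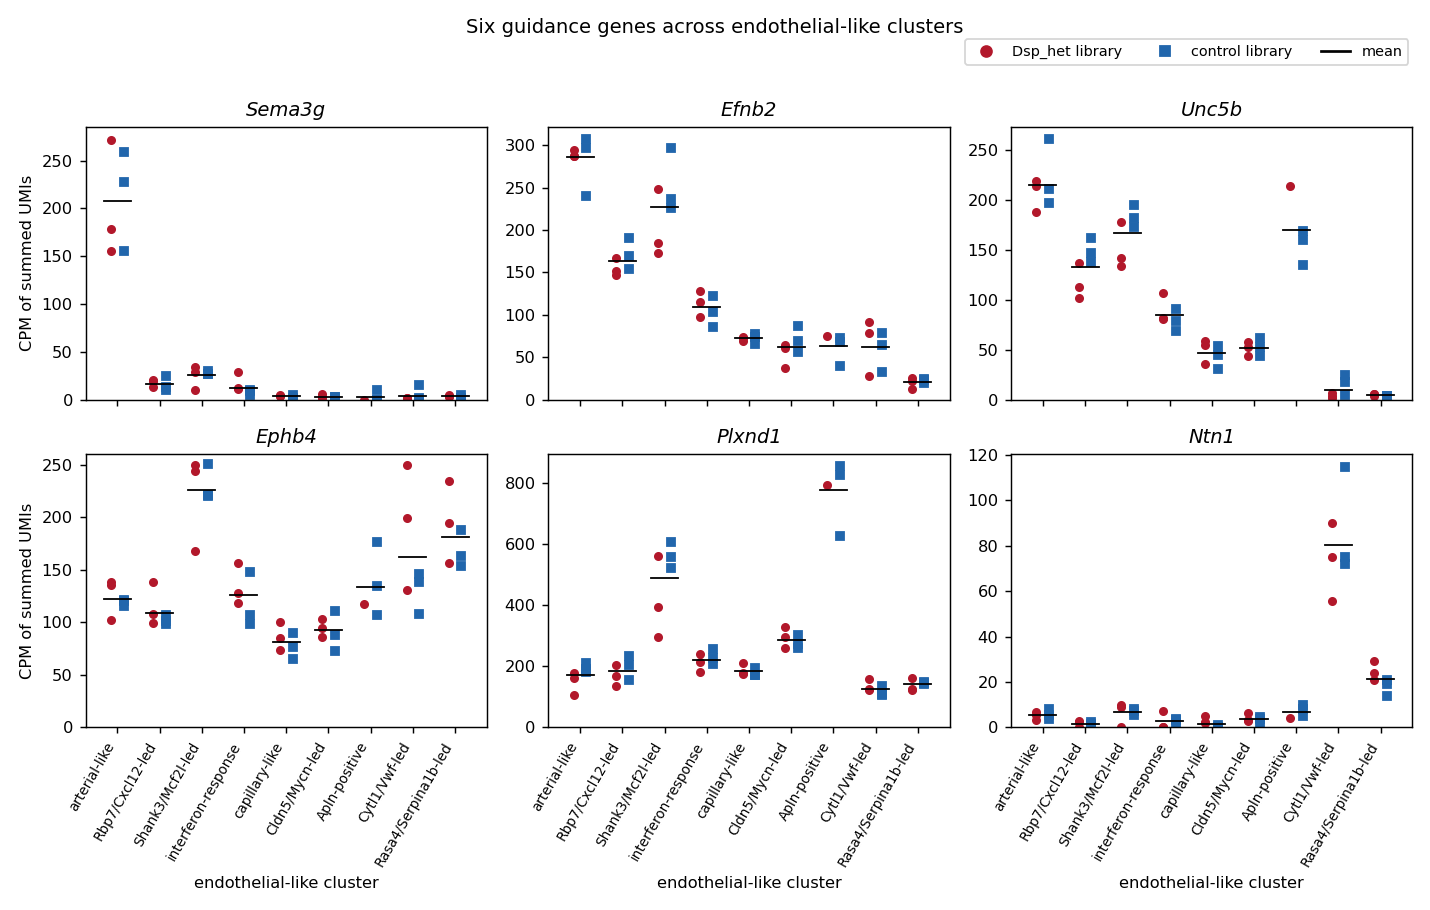
CPM per library of Sema3g, Efnb2, Unc5b, Ephb4, Plxnd1 and Ntn1 in 9 endothelial-like clusters (x axis); circles are Dsp_het libraries, squares control libraries, lines means. Efnb2 and Unc5b are lowest in the Rasa4/Serpina1b-led cluster, where the mean of Ephb4 is 182 CPM, and Ntn1 is highest in the Cytl1/Vwf-led cluster in all 6 libraries.

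Plxnd1 was highest in Apln-positive cells, a name given for genes of sprouting tip cells, at 627, 809 and 856 CPM, against 296, 538 and 607 CPM in Shank3/Mcf2l-led cells. Its ratio to the other endothelial-like cells, 1.72 on the log2 scale, was 0.54 where guidance genes were allowed to shape the clusters and 0.88 at a coarser resolution. Ephb1 (9.73, 44.2 and 71.4 CPM) had a ratio of 1.73 there, and Sema3f (68.1, 116 and 142 CPM) one of 1.29. The libraries used for these cells held 126095 to 401635 UMIs over all genes, so Ephb1 rests on few molecules in some of them. Nrp2, which pairs with plexins for Sema3f, was at 943, 1029 and 1451 CPM there and at 47.6, 66.5 and 92.4 CPM in arterial-like cells.

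The Cytl1/Vwf-led cluster carried guidance genes that were near 0 in other endothelial-like cells. On the log2 scale the largest ratios to other endothelial-like cells were 7.94 for Plxnc1, 6.88 for Epha7 and 5.12 for Ntn4, each positive in 6 of 6 libraries. Plxnc1 was at 17.9, 40 and 62.5 CPM there and at most 2.33 CPM in any library of the other 8 clusters. Ntn4 was at 27.7, 37.0 and 64.2 CPM, against at most 7.36 CPM elsewhere. Ntn1 was at 55.5, 75.1 and 115 CPM, followed by Rasa4/Serpina1b-led cells at 13.8, 20.8 and 29.4 CPM. Epha7 was at 1.63, 27.4 and 52.1 CPM, and Sema3a, a ligand of Nrp1, at 11.3, 24.7 and 46.1 CPM. Plxnc1, Ntn4, Ntn1 and Epha7 were also present in fibroblast-like cells, with means of 17.7, 50.1, 38.5 and 15.6 CPM, and Dcn, Mgp and Bgn were among the leading genes of the cluster within endothelial-like cells. The 10 fibroblast markers summed to 628, 1677 and 3684 CPM in the cluster, with Pdgfra at 0, against at most 189 CPM in any library of the other 8 clusters and at least 48399 CPM in fibroblast-like cells. The part of these markers in the levels was not tested. Plxnd1, Robo4, Sema4c, Plxna2, Efnb1, Sema7a and Sema6a had their lowest mean of all clusters here. Sema3d, a gene of epicardial-like cells, was at 16.3, 27.3 and 35.9 CPM in Rasa4/Serpina1b-led cells and 10.4, 21.6 and 46.3 CPM in Cytl1/Vwf-led cells, while its median was at most 2.23 CPM in the other clusters. Sema3c, which is higher than Sema3d in epicardial-like cells, did not exceed 0.944 CPM in endothelial-like cells as a whole.

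Shank3/Mcf2l-led cells had the highest mean of 10 of the 17 guidance genes with at least 20 CPM in endothelial-like cells, Epha4, Plxna2, Sema6d, Efnb1, Efna1, Ephb4, Robo4, Sema7a, Sema6b and Sema6a. This was 58.8% of these genes, against 31.2% of 6109 genes at that level over the whole table, and the median gene had a log2 ratio of 0.32 for this cluster over other endothelial-like cells. Sema6a was at 265, 327 and 402 CPM, clear of Rasa4/Serpina1b-led cells in second place at 142, 188 and 229 CPM. Robo4 was at 200.4, 295 and 351 CPM and overlapped Apln-positive cells at 229, 238 and 325 CPM. The cluster had a median of 2680 UMIs per cell, against 3305 to 7770 in the other 8 clusters. Its first leading gene was AU020206, a clone-type symbol that was passed over in the name. Neat1 and Lars2 were among its leading genes within endothelial-like cells, and Lars2 also led an unnamed cluster with a median of 783 UMIs. The part of depth or of such RNA in these levels was not tested. In capillary-like, interferon-response and Cldn5/Mycn-led cells no guidance gene at 20 CPM or more had a log2 ratio above 0.34 to the other endothelial-like cells. The largest there were Plxnd1 in Cldn5/Mycn-led cells (0.34), Efna1 in capillary-like cells (0.21) and Sema4c in interferon-response cells (0.13).

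The third question was whether the loss of 1 Dsp allele changed the guidance genes. Summed over all kept cells, 46 of the 51 family genes were abundant enough to test, and 0 passed in Dsp_het against control (edgeR quasi-likelihood test, Benjamini-Hochberg adjusted p under 0.05 over 12979 genes). The background was 0% of all genes called by edgeR and 2.95% by DESeq2, which called 8 of the 46 family genes. At an unadjusted p under 0.05 the count was 18 of 46 (39.1%), against 12.6% of all genes, and 14 of these were higher and 4 lower in Dsp_het. The median log2 fold change was 0.24 over the family genes and -0.01 over all genes. No overlap between the groups was seen for 13 genes higher and 5 genes lower in Dsp_het, against 10.5% and 7.64% of all genes. In such sums fewer cells of a type and less RNA per cell cannot be told apart. The labels do not say whether a library is 1 animal, so p-values measure the spread between libraries.

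Sema3d was at 62.5, 46.4 and 54.1 normalized CPM in Dsp_het, against 21.4, 19.9 and 29.5 in control (log2 fold change 1.2, SE 0.18; edgeR adjusted p = 0.131, 9.88e-06 to 0.465 over 13 alternatives). Slit3 was at 52.3, 30.5 and 51.1 in Dsp_het, against 17.2, 18.2 and 18.4 in control (1.32, SE 0.21; edgeR adjusted p = 0.131). Sema3b, a secreted semaphorin, was at 5.52, 4.64 and 5.94 in Dsp_het, against 1.80, 2.43 and 1.39 in control (1.55, SE 0.28; edgeR adjusted p = 0.131). In all 3 genes every Dsp_het library lay above every control library, yet none passed. Without Dsp_het library 2, edgeR called Sema3d (adjusted p = 0.0457), Slit3 (adjusted p = 0.0303) and Sema5a, the last just under the threshold, when 1.19% of all genes were called. In the other direction, 5 family genes were lower in Dsp_het without overlap. Unc5b, Plxnd1, Efnb2 and Sema7a had their highest mean in endothelial-like cells, and Epha2 had its highest in epicardial-like cells. Unc5b was at 50.4, 53.9 and 48.0 in Dsp_het, against 80.8, 75.4 and 76.0 in control (-0.61, SE 0.10; edgeR adjusted p = 0.131, 7.45e-04 to 0.465 over the alternatives). Plxnd1 was at 142, 151 and 129 in Dsp_het, against 227, 204 and 193 in control (-0.56, SE 0.12; edgeR adjusted p = 0.147). The 8 genes called by DESeq2 were Sema3d, Sema3c, Plxna4, Sema3b, Slit3 and Efna5, all higher, and Unc5b and Plxnd1, both lower.

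The mix of cells also differed between libraries, and its part in these sums was not tested. Epicardial-like cells gave 14.3%, 9.39% and 18.0% of UMIs in Dsp_het libraries, against 3.26%, 5.14% and 6.75% in control libraries. Fibroblast-like cells gave 30.5%, 11.5% and 13.0% in Dsp_het, against 9.81%, 9.73% and 9.16% in control, and endothelial-like cells 49.8%, 72.1% and 53.7% in Dsp_het, against 76.9%, 70.0% and 65.6% in control. Within epicardial-like cells the log2 fold changes were 0.07 for Sema3d (SE 0.21), -0.12 for Sema3c (SE 0.19), 0.06 for Plxna4 (SE 0.23) and below 0.01 in size for Slit3 (SE 0.21), and none passed. Within fibroblast-like cells they were 0.28 for Sema3d (SE 0.19), 0.32 for Sema3c (SE 0.24) and 0.16 for Slit3 (SE 0.24), and none passed.

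**Figure D4:**
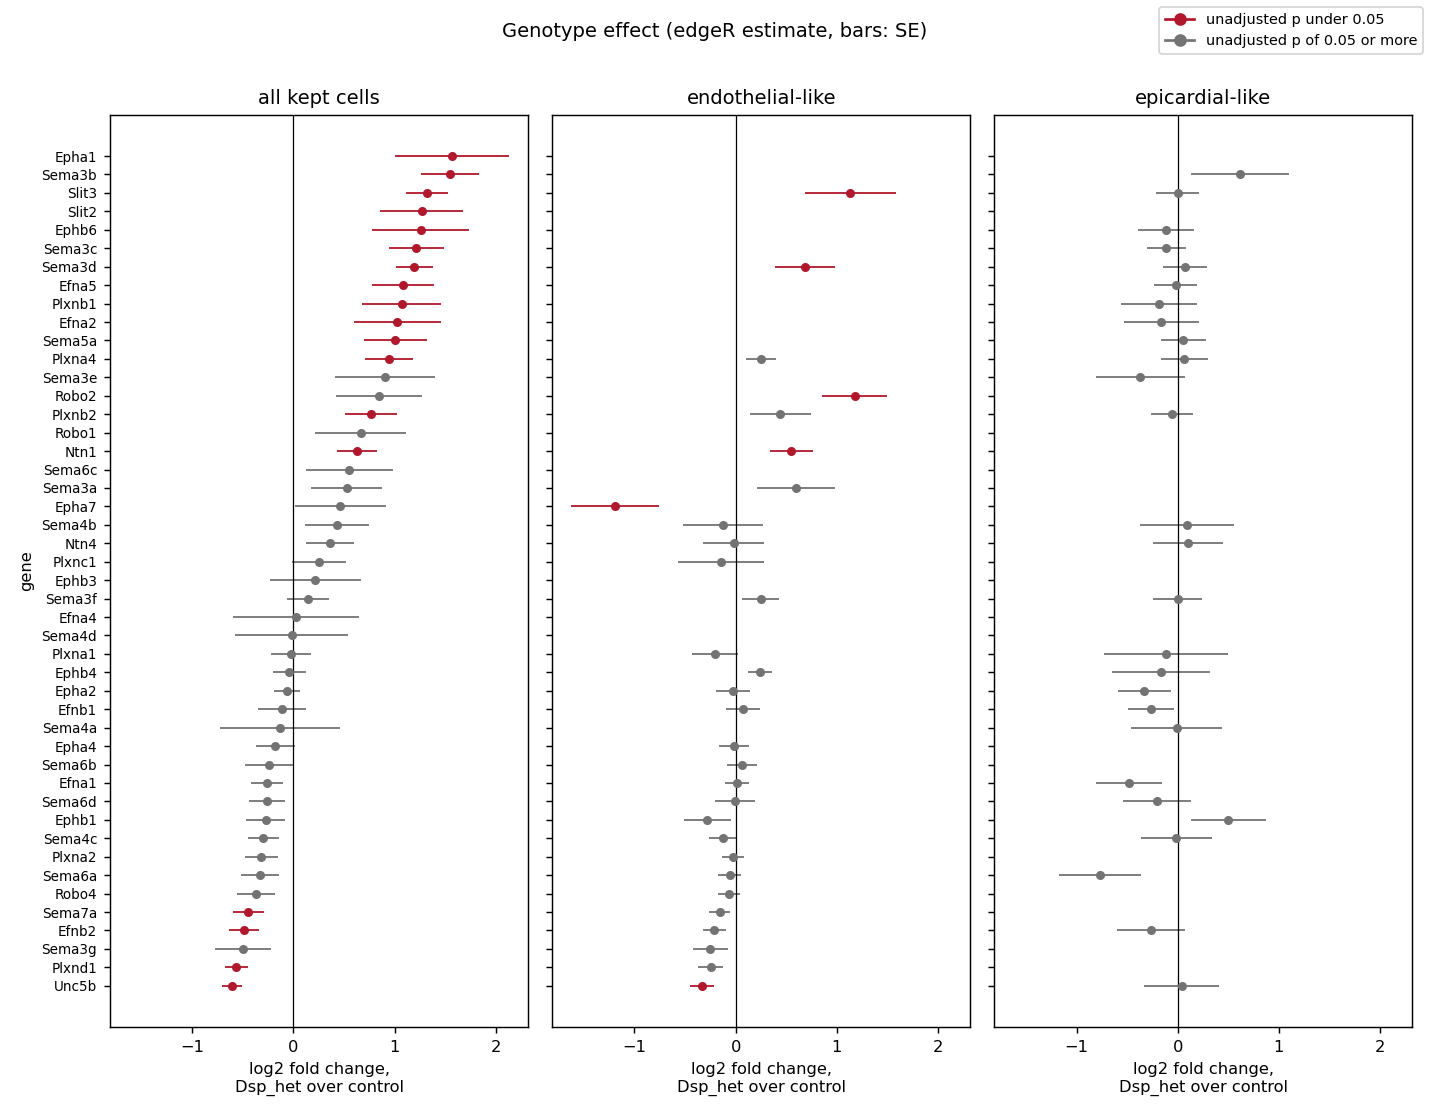
Log2 fold changes of Dsp_het over control (x axis, points; bars are SE) for 46 guidance family genes (rows) over all kept cells, in endothelial-like and in epicardial-like cells; red marks an unadjusted p under 0.05. Sema3d and Slit3 are at 1.2 and 1.32 over all cells and near 0 in epicardial-like cells, the class with their highest level.

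In endothelial-like cells 30 family genes were tested and 0 passed with edgeR or DESeq2 (background 0% and 0.115% of 11295 genes). At an unadjusted p under 0.05 there were 6 of 30 (20%), against 4.36% of all genes, and 3 genes were higher and 4 lower without overlap, against 4.33% and 3.92% of all genes. Robo2, a Slit receptor, had the smallest p. It was at 17.3, 29.7 and 19.6 normalized CPM in Dsp_het, from 115, 187 and 94 UMIs, against 11.4, 14.4 and 4.86 in control, from 93, 71 and 46 UMIs. Its log2 fold change was 1.18 (SE 0.32, unadjusted p = 0.00350, edgeR adjusted p = 0.740, 7.02e-07 to 1.00 over 13 alternatives), and every Dsp_het library lay above every control library. It passed with no filter on low counts, as given in the closing section.

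The direction was the same in the 4 clusters where Robo2 could be tested. In Shank3/Mcf2l-led cells it was at 47.1, 39.9 and 33.6 in Dsp_het, against 19.9, 24.4 and 9.65 in control (log2 fold change 1.17, SE 0.31; edgeR adjusted p = 0.592), from 32, 31 and 19 against 22, 14 and 7 UMIs. In Rbp7/Cxcl12-led cells it was at 23.1, 44.3 and 17.3 in Dsp_het, against 13.5, 15.9 and 4.10 in control (1.56, SE 0.41; edgeR adjusted p = 0.754), again without overlap. In capillary-like cells it was 1.86 (SE 0.51; edgeR adjusted p = 0.447), with 15.7, 30.5 and 25.0 in Dsp_het, against 12.8, 15.5 and 1.40 in control, so the groups nearly met and control library 3 was far lower. In Rasa4/Serpina1b-led cells it was 0.74 (SE 0.33; edgeR adjusted p = 0.999), and the groups overlapped. These clusters are parts of the same 6 libraries and are not independent replicates.

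**Figure D5:**
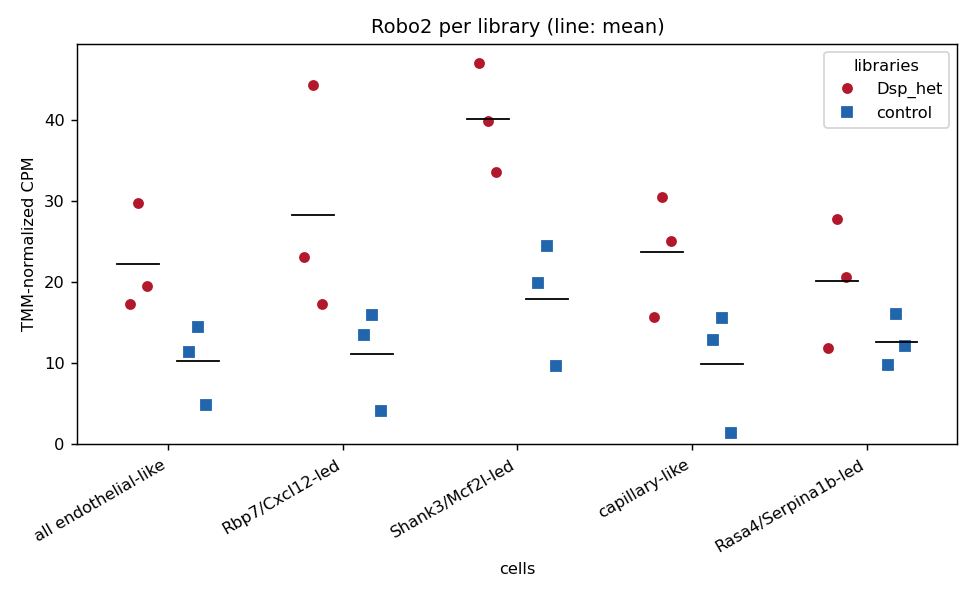
Normalized CPM of Robo2 (y axis) per library in all endothelial-like cells and in the 4 clusters where it was tested; circles are Dsp_het, squares control, lines means. The Dsp_het libraries lie above the control libraries except in Rasa4/Serpina1b-led cells, where the groups overlap.

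Unc5b in endothelial-like cells was at 87.9, 68.2 and 70.8 in Dsp_het, against 98.4, 91.4 and 95.8 in control (log2 fold change -0.33, SE 0.12; edgeR adjusted p = 0.999). Rasa4/Serpina1b-led cells, in which Unc5b was lowest, made up 18.0%, 20.9% and 26.5% of the endothelial-like cells of Dsp_het libraries, against 15.6%, 12.7% and 10.1% in control libraries, without overlap. The shares of every other cluster overlapped between the groups, and the part of cluster shares in these values was not tested. In arterial-like cells, where Unc5b was highest, its log2 fold change was -0.11 (SE 0.16), and in capillary-like cells it was below 0.01 in size (SE 0.10). Within Shank3/Mcf2l-led cells, by contrast, Unc5b was lower in Dsp_het without overlap. Within Rbp7/Cxcl12-led cells its log2 fold change lay between -0.480 and -0.251 when each library was left out. The edgeR test for a difference among clusters gave Unc5b an unadjusted p of 0.0110 and an adjusted p of 0.903. Efnb2 was lower without overlap (-0.21, SE 0.11) and Ephb4 higher without overlap (0.24, SE 0.12) in endothelial-like cells, neither with an unadjusted p under 0.05. In arterial-like cells Efnb2 was at 0.05 (SE 0.15) and Ephb4 at 0.07 (SE 0.18). Epha7, at most 2.24 normalized CPM, had a log2 fold change of -1.19 (SE 0.43; edgeR adjusted p = 0.999), from 3, 7 and 5 UMIs in Dsp_het against 15, 11 and 18 UMIs in control. Ntn1, a ligand of Unc5 receptors, was at 11.4, 12.2 and 19.1 in Dsp_het, against 10.1, 9.75 and 9.08 in control (0.55, SE 0.21; edgeR adjusted p = 0.999).

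Of the 59 Epha7 UMIs of endothelial-like cells, 52 lay in the Cytl1/Vwf-led cluster. There it was at 1.75, 25.4 and 6.81 normalized CPM in Dsp_het, from 1, 7 and 3 UMIs, against 32.6, 54.5 and 34.6 in control, from 14, 10 and 17 UMIs. The log2 fold change was -2.07 (SE 0.57; edgeR adjusted p = 0.383), and edgeR called it once Dsp_het library 2 was left out (-3.16, adjusted p = 0.0358). The 12 alternatives with an adjusted p ranged between 0.00910 and 0.823. The summed fibroblast markers of this cluster moved the same way, at 628, 1375 and 1090 CPM in Dsp_het, against 1978, 3684 and 3378 CPM in control, without overlap. Most of this was Dcn, and without Dcn the sums were 97.9, 205 and 184 CPM in Dsp_het, against 389.9, 375 and 448 CPM in control. Their part in the Epha7 result was not tested. Sema3a went the other way in these cells, at 36.7, 29.0 and 47.7 in Dsp_het, against 23.3, 16.3 and 12.2 in control (1.15, SE 0.40; edgeR adjusted p = 0.635), again without overlap. Of 20 family genes tested in this cluster 0 passed with edgeR or DESeq2, against 0.105% and 0.193% of 5688 genes, and 3 had an unadjusted p under 0.05, against 5.59%. Sema3a was the 1 gene higher without overlap (5.5% of all genes) and Epha7 the 1 gene lower (5.24%). The third was Ephb4 (0.54, SE 0.23), whose groups overlapped. The cluster held 21 to 92 cells per library.

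In the other 7 endothelial-like clusters that could be tested, 16 to 21 family genes were tested and 0 passed with edgeR or DESeq2. The background called by edgeR was 0.0146% of genes in capillary-like, 0.0138% in Cldn5/Mycn-led and 0.0151% in arterial-like cells and 0% in the other 4. At an unadjusted p under 0.05 there were 3 of 20 family genes in Rbp7/Cxcl12-led cells (background 4.48%), 2 of 21 in Rasa4/Serpina1b-led cells (3.7%) and 2 of 21 in Shank3/Mcf2l-led cells (4.44%). There were 2 of 17 in capillary-like cells (4.61%), 2 of 18 in Cldn5/Mycn-led cells (3.6%), 2 of 17 in arterial-like cells (4.1%) and 0 of 16 in interferon-response cells (4.44%). Higher in Dsp_het without overlap were Ephb1 and Robo2 in Rbp7/Cxcl12-led cells (4.49% of all genes), Epha4 and Plxna2 in Rasa4/Serpina1b-led cells (4.36%), Robo2 in Shank3/Mcf2l-led cells (3.99%), and Plxna4 and Robo2 in capillary-like cells (4.71%). Sema4c in Cldn5/Mycn-led cells (4.28%) and Efnb1 in arterial-like cells (4.63%) were also higher without overlap. Lower without overlap were Unc5b in Shank3/Mcf2l-led cells (4.72%), Plxnd1 in arterial-like cells (4.16%) and Plxna2 in interferon-response cells (4.39%).

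Epha4, a receptor of both ephrin classes, was at 26.1, 42.6 and 38.3 in Dsp_het, against 23.4, 17.5 and 19.5 in control in Rasa4/Serpina1b-led cells (log2 fold change 0.80, SE 0.24; edgeR adjusted p = 0.999). Plxna4 was at 20.9, 28.3 and 20 in Dsp_het, against 3.67, 15.5 and 11.2 in control in capillary-like cells (1.19, SE 0.36; edgeR adjusted p = 0.689). In arterial-like cells Efnb1, another ephrin-B, was 0.44 higher (SE 0.18) and Plxnd1 0.38 lower (log2 fold change -0.38, SE 0.18) on the log2 scale, and neither passed (edgeR adjusted p = 0.999 each). In interferon-response cells the smallest p was that of Plxna2 (-0.36, SE 0.19), and in Cldn5/Mycn-led cells that of Plxna2 with the other sign (0.40, SE 0.18), followed by Sema4c (0.44, SE 0.20). Ephb1, which binds ephrin-B ligands, was at 0.87 (SE 0.40) in Rbp7/Cxcl12-led cells and at -0.84 (SE 0.41) in Shank3/Mcf2l-led cells, and the groups overlapped in the second. Of the other genes among the 3 smallest p-values of a cluster, Plxnd1 was at -0.39 (SE 0.17) in Shank3/Mcf2l-led cells and Unc5b at -0.35 (SE 0.15) in Rbp7/Cxcl12-led cells. Ntn1 was at 0.48 (SE 0.26) in Rasa4/Serpina1b-led, Sema6d at 0.52 (SE 0.26) in capillary-like and Plxna4 at 0.54 (SE 0.35) in Cldn5/Mycn-led cells. Robo4 was at 0.32 (SE 0.18) in arterial-like and 0.25 (SE 0.20) in interferon-response cells, where Sema3f was at 0.53 (SE 0.35). None of these passed.

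A test of whether the genotype effect differed among the 8 clusters called 0 of 29 family genes (lowest edgeR adjusted p = 0.761). Of 9199 genes, 0.141% were called. At an unadjusted p under 0.05 there were 5 of 29 family genes, and the share of all genes at that threshold was not computed.

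In fibroblast-like cells 24 family genes were tested and 0 passed with edgeR or DESeq2, with a background of 0.0118% and 0.0236% of 8482 genes, and 3 had an unadjusted p under 0.05, against 3.31%. Sema6a was at 12.5, 15.9 and 16.3 in Dsp_het, against 24.8, 21.6 and 25.7 in control (log2 fold change -0.76, SE 0.25; edgeR adjusted p = 1.00). Efnb1 was at 14.8, 14.9 and 16.3 in Dsp_het, against 32.7, 23.2 and 20.5 in control (-0.73, SE 0.26). Plxna1, a plexin-A receptor, was at 13.2, 13.9 and 13.8 in Dsp_het, against 8.92, 7.73 and 7.33 in control (0.76, SE 0.32). The groups did not overlap in any of these 3 genes. With Sema6d this made 1 gene higher and 3 lower without overlap, against 4.23% and 4% of all genes. Sema6a and Efnb1 were genes of endothelial-like cells, and endothelial markers summed to 602 to 1411 CPM in fibroblast-like cells. Their part in these values was not tested.

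In epicardial-like cells 27 family genes were tested, and 0 had an adjusted p under 0.05 with edgeR or DESeq2 or an unadjusted p under 0.05, against 0%, 0% and 3.24% of 8299 genes. Sema6a (log2 fold change -0.77, SE 0.41), Efna1 (-0.48, SE 0.32) and Ephb1 (0.50, SE 0.37) had the smallest p-values there, and their groups overlapped. Epha2, an EphA receptor, was the 1 gene lower without overlap and 0 were higher, against 4.21% and 4.06% of all genes.

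In macrophage-like cells 7 family genes were tested in 2 Dsp_het and 3 control libraries, since Dsp_het library 1 held 2 such cells. None passed with edgeR or DESeq2 (background 0% and 0.0498% of 6019 genes), and 2 had an unadjusted p under 0.05, against 6.13% of all genes. Both were higher without overlap, as were 11.2% of all genes, and 12.4% were lower. Plxnd1 was at 170 and 145 in Dsp_het, against 102, 69.4 and 112 in control (0.68, SE 0.24; edgeR adjusted p = 0.698). Sema6d, a transmembrane semaphorin, was at 48.5 and 51.1 in Dsp_het, against 16.4, 34.7 and 30.1 in control (0.90, SE 0.37; edgeR adjusted p = 0.758). Plxnc1 was at 0.30 (SE 0.43), and its groups overlapped. Whether the genotype effect differed between classes was tested in 3 pairs, and 0 family genes passed. The background was 0%, 0.0252% and 0% of genes for fibroblast minus endothelial, epicardial minus endothelial and epicardial minus fibroblast. In fibroblast-like minus endothelial-like cells the lowest edgeR adjusted p was 0.540 for Robo4, a gene at most 5.98 CPM in fibroblast-like cells. Pericyte-like, cardiomyocyte-like, cycling and Apln-positive cells had too few libraries with 20 cells for a test.

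The other genes of the pathway, a list of 49 co-receptors and intracellular partners, gave the following. Over all kept cells 43 were tested and 0 passed, 9 having an unadjusted p under 0.05 (20.9%), 5 higher and 4 lower, against 12.6% of all genes. DESeq2 called 2 (4.65%), against 2.95% of all genes. The 2 smallest p-values were those of Neo1, a receptor of netrins, and Flrt2, an Unc5 ligand. Neo1 was at 38.6, 30.9 and 35.0 normalized CPM in Dsp_het, against 17.8, 18.7 and 16.8 in control (log2 fold change 0.98, SE 0.12; edgeR adjusted p = 0.0911). Flrt2 was at 52.1, 44.1 and 70.4 in Dsp_het, against 22.7, 29.2 and 31.8 in control (0.99, SE 0.20; edgeR adjusted p = 0.147). Nrp1 was at 471, 550.1 and 487 in Dsp_het, against 691, 667 and 590.4 in control (-0.37, SE 0.12; edgeR adjusted p = 0.279). Within endothelial-like cells Nrp1 was at -0.08 (SE 0.11) and Nrp2 at -0.04 (SE 0.14), and 0 of 40 listed genes tested there passed, with 1 at an unadjusted p under 0.05.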

How the data were processed

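Single EGFP-positive cardiac non-myocytes of 6 mouse libraries were analysed. The authors deposited 1 matrix of UMI counts, not normalized (31055 genes, 18283 barcodes), with a barcode table of total counts and genes per barcode, per the file headers; the suffix of a barcode gave its sample. Per the submitters' processing notes, GRCm38 and Seurat were used; the counting program is not given in the sources used here. Reads were 75-bp paired ends, per the labels.

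Barcodes with at least 500 UMIs, 200 genes and at most 20% mitochondrial UMIs passed (16338), and 3669 copies were then left out. Scrublet called 45 of 12669 cells (0.355%) as doublets and so has not worked; none was removed. With scanpy (1.11.5), 2000 variable genes without the guidance genes, 30 components, 15 neighbours and Leiden resolution 1.0 (seed 0) gave 19 clusters. A class needed at least 3 markers, and leading genes had to occur in at least 10% of a cluster's cells; these naming rules, unlike the markers, were set after the clusters had been seen. Counts were summed per library and class (at least 20 cells) and fitted with edgeR (4.0.16; TMM, filterByExpr with a minimum count of 10, two-sided, Benjamini-Hochberg over all genes tested), in R (4.3.3). DESeq2 (1.42.0) was an alternative. CPM is scaled by the raw sum, normalized CPM by the TMM-scaled sum. The scripts were tested on simulated data.

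The members and lists were chosen with earlier results of these data known. Named genes were the 3 highest members by class and cluster, the 3 largest cluster ratios, every gene past the threshold, the 3 smallest p-values per comparison, the highest gene of each family, and Nrp1, Nrp2 and the 2 smallest p-values of the pathway list. Others are shown as leading members of their family or as examples chosen after their values were seen. UMI numbers carry counting error as well as the spread between libraries, and depth limits genes below about 20 UMIs per library most.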

Additional observations from a re-analysis of the deposited data

How the results depend on the processing

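No guidance gene was called by the edgeR test in any of the 13 genotype comparisons, and these counts changed as follows. Over all kept cells DESeq2 called 8, the test with no filter on low counts called 2 (Sema3d and Slit3), and leaving out each library in turn gave 0 to 3, the 3 without Dsp_het replicate 2, where 159 of 13381 genes were called in all (1.19%). With no filter 1 was called in each of the endothelial-like cells (Robo2, adjusted p = 7.02e-07), Rbp7/Cxcl12-led cells (Robo2, 6.87e-04), capillary-like cells (Robo2, 0.00497) and Cytl1/Vwf-led cells (Epha7, 0.00910); in the last, leaving out each library gave 0 to 1, the 1 without Dsp_het replicate 2 (14 of 6098 genes in all, 0.23%). Of all genes, no filter called 0.274% over all kept cells, 0.841% in endothelial-like, 0.186% in Rbp7/Cxcl12-led, 0.167% in capillary-like and 0.357% in Cytl1/Vwf-led cells, and DESeq2 called 2.95% over all kept cells. Samples with the same replicate number did not deviate together (correlations of 0.02, -0.08 and -0.06 over all kept cells for replicates 1, 2 and 3), and with the replicate number as a block 0 guidance genes were called in any comparison. Keeping copies, the stricter cell filter, totals without TMM and leaving out the highest doublet scores also called 0. Of the alternative values for single genes in the genotype comparisons, 487 kept their direction and side of the threshold, 12 passed it and 1 reversed. That was Robo4 in interferon-response cells, whose log2 fold change ran between -0.014 and 0.42 with each library left out, lowest without Dsp_het replicate 2. Cluster ratios near 0 also reversed when a library was left out. In Cldn5/Mycn-led cells they ran between -0.033 and 0.23 for Sema4c and between -0.064 and 0.13 for Plxna2, in capillary-like cells between -0.027 and 0.088 for Sema4c and between -0.021 and 0.038 for Sema6a, and in interferon-response cells between -0.00017 and 0.21 for Robo4. Sema4c in capillary-like cells was also at -0.34 with guidance genes kept in the clustering. The cause was not tested. The class with the highest level was the same for 46 to 51 of 51 family genes when 1 library was left out. Clusters named only by leading genes could not be recomputed at other clusterings.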
